A study of Mus musculus with 8 samples.

Results

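The extracellular metalloproteases and their tissue inhibitors were examined in BMEL cells that received a GRHL2 expression plasmid. The genes were taken by symbol, as Mmp, Adam, Adamts or Timp followed by a number and at most 1 letter, which gave 55 of the 18671 genes of the deposited table. They comprised 15 matrix metalloproteases (MMPs), 21 ADAMs, 16 ADAMTS proteases and 3 TIMPs. Another 24 genes of these families, among them Mmp3, Mmp7, Mmp8, Adam19 and Timp4, were not analysed here. BMEL cells are a line of bipotential cells from embryonic mouse liver, able to give rise to both hepatocyte-like and cholangiocyte-like cells. RNA-seq covered 8 samples, 4 given the GRHL2 plasmid (GRHL2 samples) and 4 given the pcDNA3 vector (control samples), taken 48 h later and numbered 1 to 4 in each group. Both groups were grown on collagen-coated dishes with serum, IGFII, EGF and insulin in the medium. The GRHL2 construct expresses the human GRHL2 cDNA fused to a Flag tag from the EEF1A1 promoter and also encodes enhanced GFP, which pcDNA3 lacks, and a transfected culture is a mix of cells with and without plasmid.

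MMPs, ADAMTS proteases and the catalytic ADAMs hold a zinc ion in their active site and are made as inactive precursors whose prodomain must be removed, whereas some ADAMs have lost protease activity. MMPs cut collagens, laminins and other matrix proteins, ADAMs sit in the plasma membrane and release the outer part of neighbouring membrane proteins such as growth factors and cadherins, and ADAMTS proteases are secreted and act on proteoglycans, procollagens and other matrix proteins. TIMPs block these proteases by occupying the active site, and in the liver the balance of both is best known from the build-up and resolution of scar tissue. GRHL2 belongs to the Grainyhead family of epithelial transcription factors.

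The promoters of 4 genes are shown, and any part of their letters in the results was not tested. Adamts1 had the highest log2 fold change, and Mmp13 was the gene that fell. Mmp12 and Mmp10 are neighbours of Mmp13 on chromosome 9, and their values did not pass the test. Their promoters (for Mmp12 the second of its 2) hold the same pair of motifs as that of Mmp13. Each sequence runs 5′ to 3′ from 250 bases before the transcription start to 50 bases after it, with a total of 300 bases, and comes from RefSeq on GRCm38.p6. Capitals mark TATAAA, the letters of the TATA box, wherever they occur in the window. In Mmp12 these letters begin 4 bases after the start, and binding was not examined. Capitals also mark the AP-1 site TGANTCA and, at the end of the Mmp12 sequence only, the Grainyhead site AACCNGTT as it reads on the opposite strand.
Adamts1, chr16:85803064-85803363, minus strand: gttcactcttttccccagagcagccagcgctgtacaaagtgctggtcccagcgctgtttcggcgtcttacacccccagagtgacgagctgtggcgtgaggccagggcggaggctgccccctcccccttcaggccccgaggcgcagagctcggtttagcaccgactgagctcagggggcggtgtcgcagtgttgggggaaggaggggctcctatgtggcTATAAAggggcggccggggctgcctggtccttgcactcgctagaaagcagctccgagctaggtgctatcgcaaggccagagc
Mmp13, chr9:7272264-7272563, plus strand: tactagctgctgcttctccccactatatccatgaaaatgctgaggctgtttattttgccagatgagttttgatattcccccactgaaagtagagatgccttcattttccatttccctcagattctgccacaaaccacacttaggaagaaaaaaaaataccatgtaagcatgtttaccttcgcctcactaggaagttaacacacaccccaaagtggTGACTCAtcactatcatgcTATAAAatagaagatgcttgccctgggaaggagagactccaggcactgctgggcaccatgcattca
Mmp12, second start, chr9:7347124-7347423, plus strand: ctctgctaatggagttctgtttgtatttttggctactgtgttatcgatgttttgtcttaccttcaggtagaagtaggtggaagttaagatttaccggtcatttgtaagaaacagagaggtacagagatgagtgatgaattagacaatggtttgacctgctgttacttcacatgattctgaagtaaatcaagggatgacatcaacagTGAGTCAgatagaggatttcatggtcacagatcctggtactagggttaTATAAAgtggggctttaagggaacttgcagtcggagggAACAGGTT
Mmp10, chr9:7502092-7502391, plus strand: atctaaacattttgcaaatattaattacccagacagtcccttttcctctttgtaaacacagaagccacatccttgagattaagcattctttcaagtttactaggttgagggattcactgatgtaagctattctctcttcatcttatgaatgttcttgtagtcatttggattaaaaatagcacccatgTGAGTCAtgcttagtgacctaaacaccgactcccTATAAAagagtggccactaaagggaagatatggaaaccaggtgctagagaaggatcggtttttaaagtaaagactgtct

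The deposited values are on a log2 scale, relative to transcript length, and were read as regularized logarithms (rlog) less the log2 of transcript length in kb, so a difference between samples is a log2 fold change that the rlog shrinks for genes with few reads. Read totals are not given, and the depth of each sample is unknown. The 8 samples had medians of 6.42 to 6.49 and upper quartiles of 8.85 to 8.90. Grhl2 itself, the mouse row of the transfected factor, was at 6.30, 6.96, 5.65 and 6.05 in GRHL2 replicates 1 to 4 and at 4.68, 4.57, 4.42 and 4.44 in the control replicates. That is a log2 fold change of 1.71 (adjusted p = 0.00100 by limma, standard error 0.22). The plasmid carries the human cDNA and reads were mapped to mouse, so this row is no direct measure of the plasmid's transcript. The 9 hepatoblast and biliary markers had a log2 of their summed level of 16.75 to 16.90 in GRHL2 samples and 16.59 to 16.77 in control samples, with Afp called lower (-0.21, adjusted p = 0.0124, limma) and no other called. Of 7 stromal markers, Lrat, Dcn and Lum were not analysed here and the other 4 summed to 4.43 to 4.50 against 4.39 to 4.48, with Pdgfrb (0.11, adjusted p = 0.00886) and Reln (0.11, adjusted p = 0.0164) called higher by limma. The 5 endothelial markers summed to 4.54 to 4.66 against 4.57 to 4.60, and 3 of 6 leukocyte markers to 6.61 to 6.69 against 6.41 to 6.61, with no member called. When the replicate block described below was added, Cd68 (0.16, adjusted p = 0.0205), Kdr (0.13, adjusted p = 0.0411), Tek (0.093, adjusted p = 0.0234) and, among the biliary markers, Sox9 (0.35, adjusted p = 0.000510) and Krt19 (0.16, adjusted p = 0.0109) were called higher. These markers' part in the results below was not tested.

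Across the 55 genes, 13 rose, 1 fell and 41 did not pass an adjusted p of 0.05 (limma over all 18671 genes). In these bulk samples, fewer cells that express a gene and less RNA per cell cannot be told apart. The 13 make up 23.6% of the genes, against 10.5% called higher over the whole table, and the 1 that fell makes up 1.82%, against 5.91% called lower. By family, 8 of 16 ADAMTS genes, 4 of 21 ADAM genes and 1 of 15 MMP genes rose, Mmp13 fell, and none of the 3 TIMPs passed. The ADAMTS count was 5 under an equal median and 6 with no mean-variance trend. It was 11 under an equal upper quartile or with the replicate number as a block. The ADAM count was 3 under an equal median or with no trend. The MMP count was 3 under an equal upper quartile, 2 with no mean-variance trend and 5 with the block. Of all genes, 5.99% were called higher under an equal median and 8.82% with no trend. Under an equal upper quartile this share was 16.4%, and with the block 18.2%. The median log2 fold change was 0.030 over the 55 genes, where Adam9 is the middle gene, and 0.0066 over all genes. When samples were set to an equal median, which shifts every gene alike, these turned to -0.00015 and -0.024. By family the median was 0.076 for the ADAMTS genes (0.045 under an equal median), 0.036 for the MMPs (0.0054 under an equal median), -0.060 for the TIMPs and -0.0078 for the ADAMs, the last turning to 0.015 when samples were set to an equal upper quartile. All 4 GRHL2 samples lay above all 4 control samples for 14 genes and below them for 1, or 25.5% and 1.82% of the set, where 14.3% and 9.47% of all genes did so. As same-numbered samples of both groups deviated together, the replicate number was also fitted as a block, which gave 20 genes higher and 6 lower, with 18.2% and 13.9% of all genes called.

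The genes were also split by read level. Of the 55 genes, 32 had an rlog level of at least that of 10 reads in a sample, and 9 of them rose and 1 fell, where the table as a whole gave 10% and 7.86% at this level. The other 23 lay lower, and of these Adam33, Adamts2, Adamts5 and Adamts17 rose and none fell, whereas 11.9% of all genes at this level were called higher and only 0.849% lower. Fold changes of these 4 genes were all under 0.1 on the log2 scale, and their calls were lost when samples were set to an equal median, as given beside each.

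**Figure D1:**
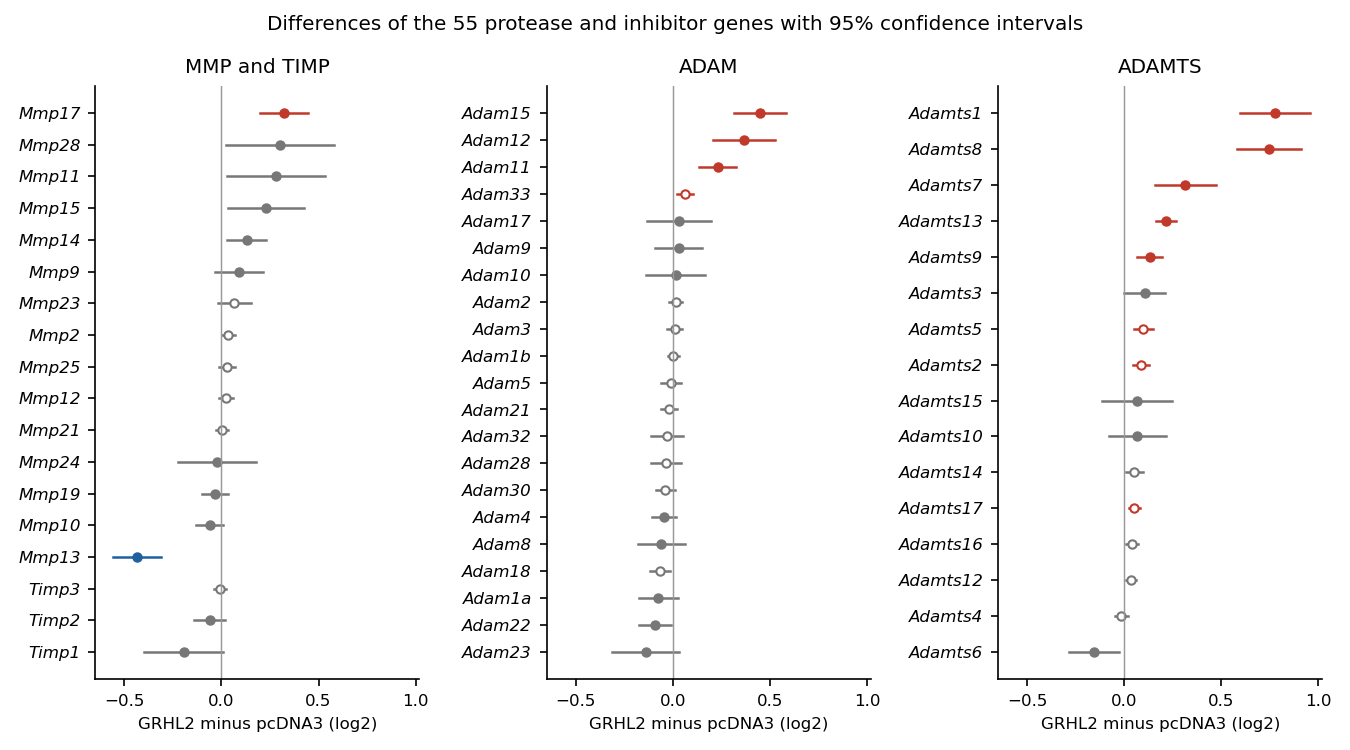
Log2 fold change (GRHL2 minus pcDNA3, horizontal axis) of each of the 55 genes with its 95% confidence interval from limma, in panels by family; red is called higher, blue called lower, grey not called, and open circles are genes below the level of 10 reads in a sample. Adamts1 and Adamts8 stand farthest to the right and Mmp13 farthest to the left, while intervals of the open circles are short.

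Of the 6 measured proteases that cut the large proteoglycans of the matrix, 4 rose, where 10.5% of all genes were called higher, with a median of 0.11 over the 6. Under an equal median the call of Adamts5, which is below the level of 10 reads, was lost. The 4 include Adamts1 and Adamts8, whose increases were the largest of the 55 genes, whereas Adamts9 and Adamts5 rose by less than Adam15, Adam12, Mmp17, Adamts7, Adam11 and Adamts13. Adamts1 (ADAMTS1 cleaves versican and aggrecan; GRCm38 chromosome 16, 85793827 to 85803113, minus strand) was at 5.40, 5.62, 5.31 and 5.20 in GRHL2 replicates 1 to 4, and at 4.53, 4.57, 4.66 and 4.66 in the control replicates. Each GRHL2 sample was above every control sample, and the spread was wider with GRHL2 (SD 0.18, n = 4) than in control samples (SD 0.065, n = 4). The log2 fold change of Adamts1 was 0.78 (limma, adjusted p = 0.000326, with a standard error of 0.080 and a 95% confidence interval from 0.60 to 0.95), or 1.71-fold. Replicates 1 and 2 gave 0.96 and replicates 3 and 4 gave 0.59, below the 0.64 of Adamts8 in these replicates.

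Adamts8, a related protease first described as an inhibitor of blood vessel growth (chromosome 9, 30942562 to 30963838, plus strand), was at 3.74, 3.92, 3.53 and 3.58 with GRHL2 and at 2.95, 3.01, 2.90 and 2.93 in control samples. The groups lay well apart, and as for Adamts1, replicates 1 and 2 were the highest of the GRHL2 samples. Its log2 fold change was 0.74 (adjusted p = 0.000270 by limma, standard error 0.074), or 1.67-fold, with 0.85 from replicates 1 and 2 and 0.64 from replicates 3 and 4. The difference between Adamts1 and Adamts8 was smaller than either standard error. Exons of Adamts8 share 489 bases with the antisense gene Gm29724, not analysed here, and reads were counted without regard to strand.

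Adamts9, another versican-cleaving enzyme, was lower in level, at 1.87, 1.89, 1.90 and 1.93 with GRHL2 and at 1.78, 1.71, 1.74 and 1.84 without it. The groups did not overlap and the change was small, with a log2 fold change of 0.13 (adjusted p = 0.0129 by limma, standard error 0.029). Its exons share 1381 bases with A730049H05Rik and 424 bases with Gm15737, both on the opposite strand. Adamts5, the main aggrecan-cleaving enzyme of cartilage, had one of the lowest levels, at -0.99, -1.03, -1.11 and -1.03 against -1.14, -1.13, -1.15 and -1.13. Its log2 fold change was 0.097 (adjusted p = 0.0151 by limma, standard error 0.022) and 0.067 with an adjusted p of 0.179 under an equal median, and the call was also lost with no mean-variance trend (adjusted p = 0.0614). The other 2 genes of the group did not pass: Adamts15 had the highest level of all ADAMTS genes, with a control mean of 6.39 and a log2 fold change of 0.066 (95% confidence interval -0.11 to 0.25), and Adamts4 had one of -0.015 (-0.049 to 0.020).

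The remaining ADAMTS genes act on procollagen, cartilage oligomeric matrix protein (COMP), von Willebrand factor and fibrillin. Adamts7, which cuts COMP, was at 4.67, 4.68, 4.79 and 4.77 with GRHL2 and at 4.29, 4.31, 4.44 and 4.62 in control samples. Control replicate 4 came close to the GRHL2 samples without reaching them, and the log2 fold change of Adamts7 was 0.31 (adjusted p = 0.0145 by limma, standard error 0.070). Its exons share 122 bases with Tbc1d2b (difference 0.091, adjusted p = 0.381). Adamts13, which trims von Willebrand factor in plasma and is made in the liver, was at 1.99, 1.90, 1.95 and 1.91 against 1.74, 1.73, 1.70 and 1.71. Its replicates were tight in both groups (SD 0.041 and 0.014, n = 4 each), and its log2 fold change of 0.22 (adjusted p = 0.000353 by limma, standard error 0.023) came to 0.21 from replicates 1 and 2 and to 0.22 from replicates 3 and 4. Adamts12, the second COMP-cleaving enzyme, had a difference of 0.033 and an adjusted p of 0.0861, and 0.0393 with the block.

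The procollagen N-propeptidases Adamts2, Adamts3 and Adamts14 remove the amino-terminal extension of fibrillar procollagens. Adamts2 was at 0.58, 0.61, 0.54 and 0.55 with GRHL2 and at 0.47, 0.50, 0.47 and 0.49 in control samples, which did not overlap. Its log2 fold change was 0.086 (adjusted p = 0.00983 by limma, standard error 0.017), and 0.055 with an adjusted p of 0.210 under an equal median. Adamts3 (0.10, adjusted p = 0.159, with the block 0.0287) and Adamts14 (0.051, adjusted p = 0.109) had higher GRHL2 samples in all 4 pairs and groups that overlapped. Adamts17, a protease of the fibrillin microfibril, was at -0.025, -0.047, -0.073 and -0.075 against -0.11, -0.11, -0.098 and -0.11. This is a difference of 0.050 (adjusted p = 0.0242 by limma, standard error 0.013) at 1 of the lowest levels measured, and it was not called without control replicates 1, 2 or 4 (adjusted p 0.0556 to 0.0650) or under an equal median (0.020, adjusted p = 0.604) or with no mean-variance trend (adjusted p = 0.138). Adamts6 was the ADAMTS gene with the most negative value, -0.16, with an adjusted p of 0.0913 and of 0.00590 with the block, each GRHL2 sample being below the control sample of its number. Adamts10, also of the fibrillin microfibril, had a difference of 0.066 (adjusted p = 0.544), and Adamts16 one of 0.038 (adjusted p = 0.0968, with the block 0.0444).

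**Figure D2:**
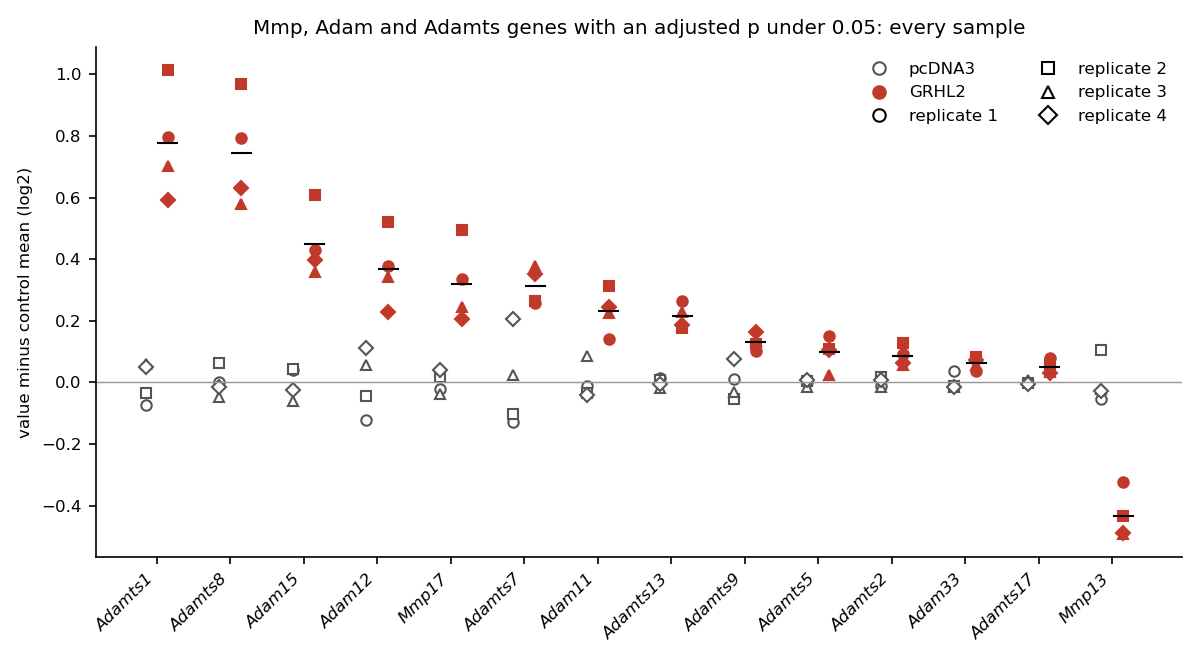
Value of each sample minus the control mean of the same gene (log2, vertical axis) for the 14 called genes, with open symbols for pcDNA3, red symbols for GRHL2, a symbol shape for each replicate number and a bar at the GRHL2 mean. Every GRHL2 sample of Adamts1 and Adamts8 lies above 0.5, the GRHL2 samples of Mmp13 all lie below -0.3, and Adam33 is the gene whose groups overlap.

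Among the ADAMs, 3 of 8 measured catalytic somatic genes and 1 of 3 non-catalytic neural genes rose, where 10.5% of all genes were called higher. None of the 10 genes best known from the reproductive tract was called higher, which is near that background for 10 genes, and these groups were not tested against each other. Adam15, a membrane protease whose ectodomain also binds integrins (chromosome 3, 89338542 to 89349996, minus strand), was at 8.55, 8.73, 8.48 and 8.52 with GRHL2 and at 8.16, 8.16, 8.06 and 8.09 in control samples. The groups lay clearly apart, with GRHL2 replicate 2 the highest. The log2 fold change was 0.45 (adjusted p = 0.00124 by limma, standard error 0.061), or 1.36-fold, at 0.48 in replicates 1 and 2 and 0.42 in replicates 3 and 4. Its exons share 1263 bases with the antisense gene 4731419I09Rik, not analysed here.

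Adam12, a protease of fusing muscle cells and of activated hepatic stellate cells, was at 7.31, 7.45, 7.27 and 7.16 with GRHL2 and at 6.81, 6.89, 6.98 and 7.04 without it. All GRHL2 samples were higher, but GRHL2 replicate 4 was close to its control, and the log2 fold change of 0.37 (adjusted p = 0.00791 by limma, standard error 0.072) came to 0.53 from the first pair of replicates and to 0.20 from replicates 3 and 4. Adam11, a receptor without protease activity that is known from neurons, was at 3.82, 3.99, 3.91 and 3.93 against 3.67, 3.65, 3.77 and 3.64. The groups did not overlap, and the log2 fold change was 0.23 (adjusted p = 0.00636 by limma, standard error 0.043). Adam33 had a low level and overlapping groups, at 1.10, 1.15, 1.12 and 1.14 against 1.10, 1.05, 1.05 and 1.05. Its difference of 0.062 (adjusted p = 0.0386 by limma, standard error 0.018) was lost under an equal median (0.032, adjusted p = 0.432), with no mean-variance trend (adjusted p = 0.103) and without any of 6 samples: GRHL2 replicates 2, 3 and 4 and control replicates 2, 3 and 4 (adjusted p 0.0695 to 0.0949).

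The abundant sheddases showed no detectable change. Adam10, which releases the ectodomains of Notch and E-cadherin, had a mean of 10.70 ± 0.13 (SD, n = 4) with GRHL2 and of 10.68 ± 0.070 (SD, n = 4) without it, a difference of 0.014 (95% confidence interval -0.14 to 0.17, adjusted p = 0.914, limma). Adam17, which releases TNF and several EGF receptor ligands, had 8.71 ± 0.13 and 8.68 ± 0.10 (SD, n = 4 each), with a difference of 0.033 (-0.13 to 0.20). Adam9 had 10.67 ± 0.018 and 10.64 ± 0.10 (SD, n = 4 each), with a difference of 0.030 (-0.092 to 0.15). The samples of these 3 genes overlapped between groups, and the 3 intervals together span -0.14 to 0.20 on the log2 scale. Adam8 and Adam28, the remaining catalytic genes, had differences of -0.059 and -0.035 and did not pass. Of the neural genes without protease activity, Adam23 was at 3.97, 3.99, 3.81 and 3.72 with GRHL2 and at 4.13, 4.13, 3.91 and 3.88 in control samples. Its difference of -0.14 had an adjusted p of 0.249 (limma), and of 0.00886 with the block. Adam22 had a difference of -0.092 (adjusted p = 0.129, with the block 0.0539). The 10 reproductive tract genes ranged from -0.075 to 0.014, 8 of them below the level of 10 reads, and with the block Adam1a (-0.075, adjusted p = 0.0484) and Adam18 (-0.067, adjusted p = 0.0393) were called lower. Exons of Adam1a share 4779 bases on the same strand with Gm42878 and 1805 with Mapkapk5, so its value is uncertain.

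Mmp13 was the 1 gene of the set that fell by limma with all samples, the deposited scale and no block. It encodes collagenase 3, which cuts fibrillar collagens, and is the only 1 of 4 listed collagenase genes in the table (chromosome 9, 7272514 to 7283331, plus strand). Its values were 8.16, 8.05, 7.997 and 7.999 in GRHL2 replicates 1 to 4 and 8.43, 8.59, 8.47 and 8.46 in the control replicates. Every GRHL2 sample was below every control sample, and the log2 fold change was -0.43 (limma, adjusted p = 0.000996, with a standard error of 0.056 and a 95% confidence interval from -0.56 to -0.31). Replicates 1 and 2 gave -0.40 and replicates 3 and 4 gave -0.46.

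Of the 5 measured membrane-type MMPs, Mmp17 rose. Mmp17 encodes an MMP held at the cell surface by a lipid anchor, and it was at 3.07, 3.22, 2.98 and 2.94 with GRHL2 and at 2.71, 2.75, 2.69 and 2.77 in control samples. The groups did not overlap, and the log2 fold change was 0.32 (adjusted p = 0.00428 by limma, standard error 0.055), with 0.42 in replicates 1 and 2 and 0.22 in replicates 3 and 4. Mmp14, whose product activates pro-MMP2 and cuts collagen at the cell surface, was at 11.25, 11.22, 11.32 and 11.31 against 11.11, 11.09, 11.18 and 11.20. Its GRHL2 samples were all higher than its control samples, yet the difference of 0.13 (standard error 0.045) had an adjusted p of 0.0761 without the block and of 0.0104 with it (limma). Mmp14 was also called under an equal upper quartile (adjusted p = 0.0413) and with no mean-variance trend (adjusted p = 0.0445). Mmp15 was at 7.78, 8.07, 8.12 and 8.14 against 7.69, 7.71, 7.89 and 7.90. Its groups overlapped, and the difference of 0.23 (standard error 0.088) had an adjusted p of 0.106, of 0.00653 with the block and of 0.0213 without GRHL2 replicate 1. Mmp24 (-0.023) and Mmp25 (0.029) did not pass with or without the block.

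Mmp11 and Mmp28 were called when the block was added. Mmp11 (stromelysin 3, which leaves the cell already activated) was at 9.02, 8.94, 9.32 and 9.36 with GRHL2 and at 8.79, 8.69, 8.98 and 9.06 without it. Within each number the GRHL2 sample was higher, whereas the groups overlapped, and the adjusted p of the difference of 0.28 was 0.123 without and 0.000753 with the block (limma). Mmp28 (epilysin) was at 7.60, 7.69, 7.99 and 7.92 against 7.40, 7.20, 7.67 and 7.72, a difference of 0.30 with an adjusted p of 0.130 and of 0.00318 with the block. Exons of Mmp11 share 155 bases with Chchd10 (difference 0.029, adjusted p = 0.781) and those of Mmp28 share 466 bases with 1700020L24Rik (0.10, not called), both on the opposite strand. The gelatinases, which degrade denatured collagen and the collagen of basement membranes, did not pass: Mmp9 had a control mean of 3.32 and a difference of 0.089 (95% confidence interval -0.034 to 0.21), and Mmp2 had a control mean of 0.42, below the level of 10 reads, and a difference of 0.036 (0.0016 to 0.070, adjusted p = 0.143, and 0.0277 under an equal upper quartile). Mmp10 (-0.061), Mmp12 (0.024), Mmp19 (-0.034), Mmp21 (0.0019) and Mmp23 (0.067) did not pass either.

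**Figure D3:**
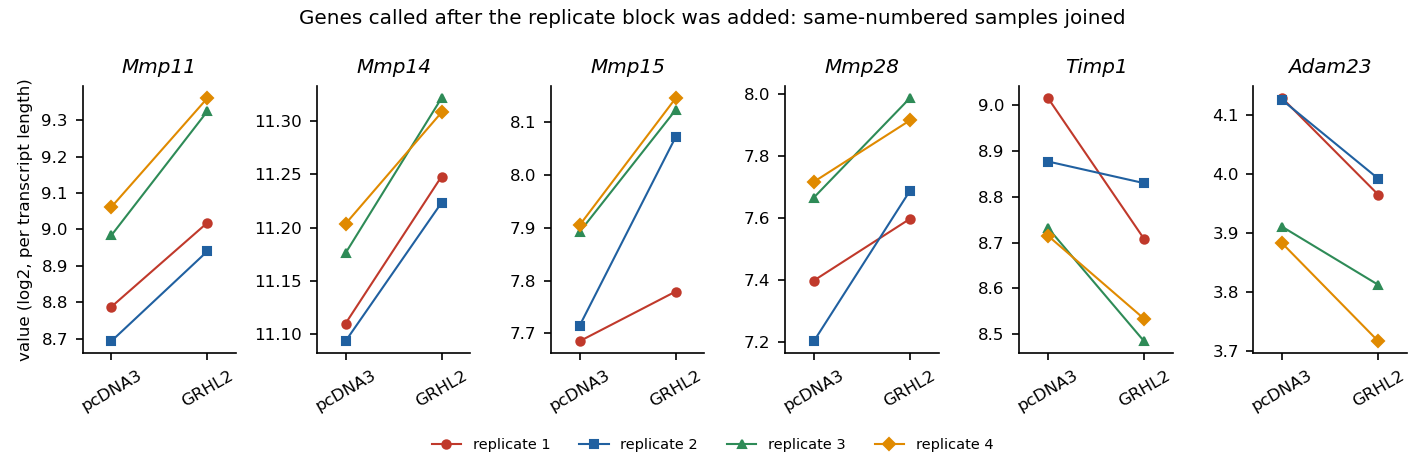
Values (log2, vertical axes with separate ranges that do not start at 0) of 6 genes called after the replicate block was added, with a line joining the control and GRHL2 samples of the same number. In Mmp11, Mmp14, Mmp15 and Mmp28 all 4 lines rise, in Timp1 and Adam23 all 4 fall, and the samples of replicates 1 and 2 mostly lie apart from those of replicates 3 and 4.

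None of the 3 TIMPs was called without the block. Timp1, a secreted inhibitor that is induced in injured liver, was at 8.71, 8.83, 8.49 and 8.53 with GRHL2 and at 9.01, 8.88, 8.73 and 8.71 in control samples. The groups overlapped, and each GRHL2 sample was below its same-numbered control. The difference of -0.20 (standard error 0.091, 95% confidence interval -0.40 to 0.0080) had an adjusted p of 0.176 and of 0.0136 with the block (limma). Timp2, which besides blocking MMPs helps MMP14 to activate pro-MMP2, was at 12.42, 12.41, 12.50 and 12.42 against 12.51, 12.51, 12.51 and 12.47. GRHL2 replicate 3 and control replicate 4 stood apart from the rest of their groups, which overlapped, and the difference of -0.060 (-0.14 to 0.020) had an adjusted p of 0.289. Timp3, which binds to the matrix and also inhibits ADAM17 and aggrecanases, was near the lower limit at a control mean of 0.26, with a difference of -0.0069 (-0.039 to 0.025) that turned to 0.016 under an equal upper quartile. Its exons share 1733 bases with Syn3 on the opposite strand.

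Levels differed widely among the genes of each family. On the deposited scale, which corrects for transcript length, the control means ran from 12.50 for Timp2 (its mean over the 8 samples was above that of 98.5% of all genes) through 11.15 for Mmp14, 10.68 for Adam10 and 10.64 for Adam9 to -1.65 for Adamts12. Adam10 and Adam9 overlapped in their control samples, as did Mmp11 (8.88), Timp1 (8.83), Adam17 (8.68) and Mmp13 (8.49), each with the next in this order. When the values were put back on a linear scale and summed over the 55 genes, Timp2 made up 40.4 ± 0.757% of the sum in control samples and 38.1 ± 0.591% in GRHL2 samples (SD, n = 4 each). Timp2, Mmp14, Adam10 and Adam9 together made up 78.2% over the 8 samples. The genes with the largest fold changes had small shares, with 0.170% for Adamts1 and 0.0539% for Adamts8 in control samples and 0.288% and 0.0895% with GRHL2. Mmp13 went from 2.51 ± 0.131% to 1.83 ± 0.141% and Adam15 from 1.94 ± 0.0788% to 2.61 ± 0.263% (SD, n = 4 each).

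**Figure D4:**
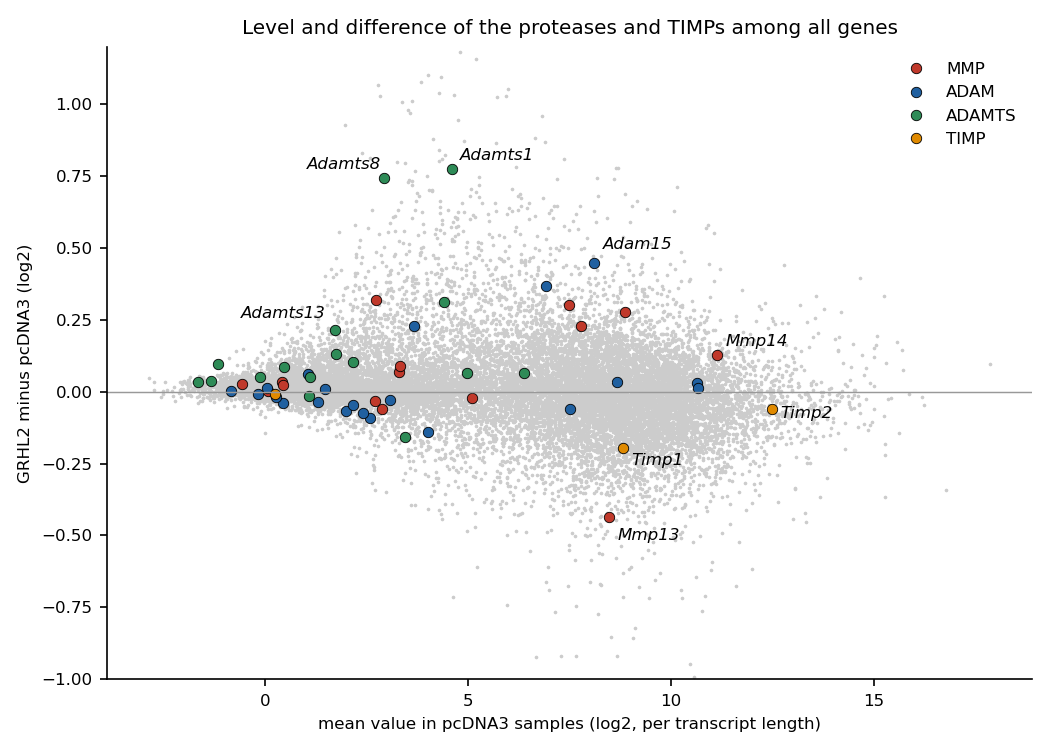
Mean control value (log2 per transcript length, horizontal axis) against the log2 fold change (GRHL2 minus pcDNA3, vertical axis) of all genes in grey and of MMP, ADAM, ADAMTS and TIMP genes in colour, with 27 genes beyond the vertical range not drawn. The 4 most abundant genes, Timp2, Mmp14, Adam10 and Adam9, all lie within 0.2 of 0, and the grey cloud narrows towards low levels.

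Several of these genes lie beside each other in the genome. Adamts8 and Adamts15 are 20.1 kb apart on chromosome 9 on opposite strands, with log2 fold changes of 0.74 and 0.066. Adamts1 and Adamts5 are 53.1 kb apart on chromosome 16, with 0.78 and 0.097, the latter at a level where the rlog shrinks differences. In the MMP cluster of chromosome 9, Mmp13 (-0.43) is followed by Mmp12 (0.024) after 61.0 kb and by Mmp10 (-0.061) after another 132.9 kb. The ADAM cluster of chromosome 8 holds Adam18, Adam3, Adam5, Adam32 and Adam9, of which only Adam9 (control mean 10.64) had a high level, and none of these 5 passed as first fitted. Adam18 was called lower with the block, under an equal median and without control replicate 1. Differences between neighbours were not tested.

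RefSeq promoters were found for 31 of the 55 genes (33 promoters) and for 12883 genes of the table (16321 promoters of 300 bases). Both strands were searched. TGANTCA, the AP-1 site, occurred in 6.04% of all promoters and in those of 4 of the 31 genes: Mmp13 (starting 35 bases before the transcription start), Mmp12 (44 bases before), Mmp10 (63 bases before) and Adam1b. TATAAA occurred in 8.28% of promoters and in 5 of the 31 genes, in Adamts1 at 32, in Mmp13 at 16 and in Mmp10 at 29 bases before the start, in Mmp21 at 70 bases before it, and in the second Mmp12 promoter at 4 bases after it. The first Mmp12 promoter held none of the 3 motifs. AACCNGTT, the Grainyhead site, occurred in 1.88% of promoters and among the 31 genes in Mmp12 alone, whose value did not pass. The median GC content was 63.3% for the promoters of these genes and 59.7% for all. In the sequences shown, Mmp13, which fell, and Mmp10, which did not pass, hold the AP-1 and TATA letters in the same order. A match is a description of these letters within this window, and distal elements were not examined.

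Genes whose products act with these proteases were taken from lists of activators, adaptors, related proteases, inhibitors and shed ligands. Of 42 listed genes 38 were in the table, and 11 rose and 2 fell, or 28.9% and 5.26%, against 10.5% and 5.91% of all genes. Plau, the urokinase that turns plasminogen into plasmin, a broad activator of pro-MMPs, was at 7.93, 7.95, 7.74 and 7.74 with GRHL2 and at 7.15, 7.25, 7.17 and 7.19 in control samples. The groups lay far apart, with a log2 fold change of 0.65 (adjusted p = 0.000207 by limma, standard error 0.061). Of the other 7 genes of the plasminogen system, the protease inhibitor Serpine2 rose (0.24, adjusted p = 0.0106). Plat (-0.17) and Serpinb2 (0.72) passed when the block was added (adjusted p = 0.0112 and 0.00301, against 0.0566 and 0.114), and Plg, which encodes plasminogen itself, was below the level of 10 reads.

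The products of other partners work with ADAM10 and ADAM17, whose own genes did not pass. Tspan14 and Tspan33 belong to the tetraspanins that escort ADAM10 to the cell surface, and their log2 fold changes were 0.50 (adjusted p = 0.00274, standard error 0.080) and 0.40 (adjusted p = 0.00227 by limma, standard error 0.061). The other 4 tetraspanins of this kind were not called, and with the block Tspan15 was called lower (-0.12, adjusted p = 0.0334). Rhbdf1, Rhbdf2 and Frmd8 encode iRhom1, iRhom2 and their cofactor, which carry ADAM17 to the cell surface. Rhbdf1 rose from 9.67, 9.65, 9.62 and 9.71 in control samples to 10.08, 10.17, 9.94 and 9.85, whereas Rhbdf2 fell from 8.97, 9.06, 9.05 and 8.97 to 8.79, 8.77, 8.85 and 8.86. These are log2 fold changes of 0.35 (adjusted p = 0.00895, standard error 0.069) and -0.19 (adjusted p = 0.0185 by limma, standard error 0.046). Rhbdf2 lost its call without GRHL2 replicate 1 or control replicate 3 (adjusted p = 0.0531 and 0.0550), and Frmd8 (0.16, adjusted p = 0.0433) lost it without any 1 of the 8 samples and under an equal median (adjusted p = 0.104).

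Of the 4 proprotein convertases, which remove the prodomains of ADAMs and membrane-type MMPs, Pcsk6 rose by 0.44 (adjusted p = 0.00134 by limma, standard error 0.061), and Furin had a difference of 0.030 (95% confidence interval -0.083 to 0.14). Bmp1, the astacin protease that removes the carboxy-terminal extension of procollagens, rose by 0.31 (adjusted p = 0.00129, standard error 0.043), and its relative Tll2, at a level below that of 10 reads, fell by 0.12 (adjusted p = 0.0187, and 0.0508 with no mean-variance trend). Among 7 EGF receptor ligands released by ADAMs, Tgfa rose by 0.20 (adjusted p = 0.0121, standard error 0.043), with GRHL2 samples within 9.63 to 9.65 and control samples from 9.38 to 9.49. The other 6 were not called, Egf (-0.13) passing when the block was added (adjusted p = 0.0469), and these cells were grown with EGF. Reck, a membrane-anchored MMP inhibitor (0.12, adjusted p = 0.0446), and Papln, of the ADAMTS-like proteins (0.076, adjusted p = 0.0315), were called narrowly. Reck lost its call without any 1 of 7 samples, all but control replicate 4, and Papln without GRHL2 replicates 3 or 4 or control replicates 1, 2 or 3. Both also lost it under an equal median (adjusted p = 0.123 and 0.161) and with no mean-variance trend (adjusted p = 0.0555 and 0.0816). Bsg, which induces MMPs in neighbouring cells, had a difference of 0.24 with an adjusted p of 0.0654, and of 0.00111 with the block. Thsd4 (0.22), Adamtsl5 (-0.13) and Mep1a (-0.15) were likewise called when the block was added, at an adjusted p of 0.0169, 0.0410 and 0.0409.

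**Figure D5:**
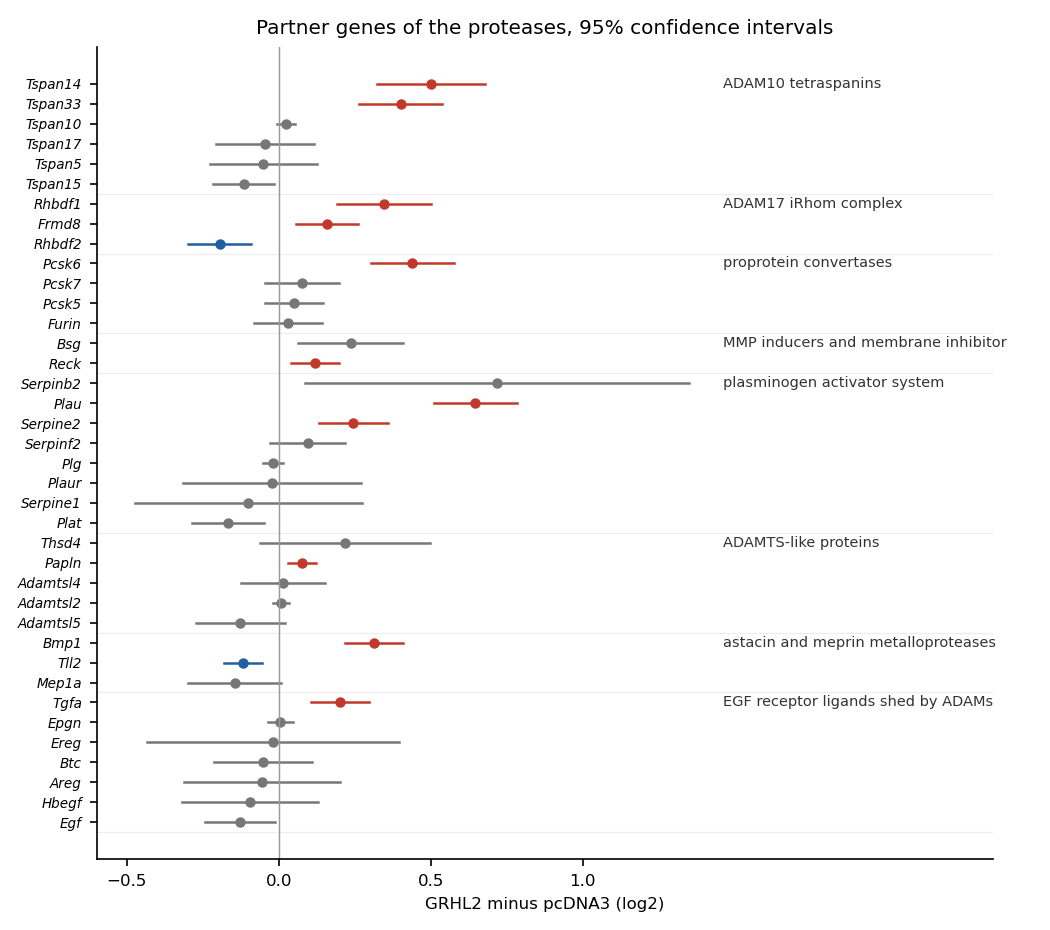
Log2 fold change (GRHL2 minus pcDNA3, horizontal axis) of the 38 partner genes with 95% confidence intervals from limma, in blocks by role; red is called higher, blue called lower and grey not called. Plau, Tspan14 and Pcsk6 have the largest called increases, and Serpinb2 has a larger value with an interval from 0.088 to 1.35.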

How the data were processed

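RNA-seq of 8 BMEL samples was used, with groups and replicate numbers from the sample labels. According to the methods, the authors counted exon reads on either strand, dropped genes below 10 cumulated reads and divided DESeq2 rlog values by mean transcript length. That this description covers the BMEL samples is assumed. The submitters' processing notes name HISAT2 2.2.1, HTSeq 0.9.1, DESeq2 1.40.2 and the builds mm10 and GRCm39. The deposited values are on a log2 scale (7190 of 149368 are below 0), although the table is named for FPKM, so no pseudocount was added, no count test could be used and the depth is unknown.

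All 18671 genes were fitted with limma 3.58.1 in R 4.3.3 (2 groups, mean-variance trend) and called at an adjusted p under 0.05 after Benjamini and Hochberg. The script was tested on simulated data. The study describes the replicates as independent biological ones, the labels do not say how they were separated, and p-values measure the spread between these samples. Same-numbered samples were taken as pairs: deviations from the group means correlated across genes with r from 0.474 to 0.645 in all 4 same-numbered pairs, and the replicate number was fitted as a block as an alternative. Other pairs within replicates 1 and 2 or within 3 and 4 had r from 0.344 to 0.602 (GRHL2 replicate 3 was closer to control replicate 4 than to 3), and pairs across them had negative r, so the numbers also fall into these 2 sets. The other alternatives were each sample left out, equal upper quartile, equal median, no trend, a minimum mean value of 0, and replicates 1 and 2 or 3 and 4 alone. Genes named were every called gene of the set, with values in every sample for up to 15 called genes whose groups did not overlap, a list of well-known members called or not (Mmp2, Mmp9, Mmp14, Mmp15, Adam9, Adam10, Adam17 and the TIMPs among them), and up to 3 called partners per list. Other genes called with the block were added after their values were seen. The level of 10 reads was taken as a log2 of 3.32, after adding to each value the log2 of its transcript kb (mean over GENCODE M21). Gene positions and exon overlaps are those of GENCODE M21 on GRCm38. Members and gene lists were chosen with earlier results of these data known. The study's other experiments were not analysed here.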

Additional observations from a re-analysis of the deposited data

Results flagged for a closer look

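Among the named genes and partners, 74 groups of 4 samples were examined for a sample far from the other 3, and 5 groups had one, about as many as chance gives at 1 in 20. In control samples, Adam33 was at 1.10 in replicate 1, above the next sample at 1.05, and Mmp2 was at 0.432 in replicate 4, above the next at 0.413. Timp2 was at 12.47 in control replicate 4, below the next sample at 12.51, and at 12.50 in GRHL2 replicate 3, above the next at 12.42. Timp3 was at 0.294 in GRHL2 replicate 3, above the next at 0.246. Without control replicate 1, Adam33 had a log2 fold change of 0.075.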

How the results depend on the processing

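Of the 14 called genes, Adamts1, Adamts7, Adamts8, Adamts9, Adamts13, Adam11, Adam12, Adam15, Mmp13 and Mmp17 were called under all 13 alternatives with a test, while Adam33, Adamts2, Adamts5 and Adamts17, all below the level of 10 reads, lost the call under at least 1, and a minimum mean value of 0 left Adamts5 and Adamts17 untested. The replicate block gave 20 genes of the set higher and 6 lower, 3396 and 2589 over all genes, and 7 partners lower, and lost none of the 14 calls. An equal median gave 9 higher and 2 lower in the set, with 1119 of all genes higher and 1256 lower. An equal upper quartile gave 18 higher and 1 lower in the set, with 3064 of all genes higher and 972 lower. The share of all calls that were higher was 63.9%, against 75.9% with an equal upper quartile and 47.1% with an equal median. With samples left out, 11 to 14 genes of the set were higher and 1 to 3 lower. Over all genes, 1326 to 1848 were higher and 690 to 1036 lower, and 1 to 3 partners were lower. Besides Mmp13, lower genes of the set were called without GRHL2 replicate 2 (Adamts6 and Mmp10), without control replicate 1 (Adam18) and under an equal median (Adam18). 3 sheddases that did not pass changed sign: Adam10 ran from -0.024 to 0.060, Adam17 from -0.017 to 0.086 and Adam9 from -0.0085 to 0.067 with samples left out, and under an equal median Adam10 was at -0.016 and Adam9 at -0.00015. Timp3 was at 0.016 under an equal upper quartile. The cause of these changes was not tested. Since the deposited scale is log2, the alternatives for linear values (pseudocounts and a minimum FPKM) were not run, and replicates 1 and 2 or 3 and 4 alone were used for differences of single genes, with no test. The rlog shrinks differences most in the 23 of the 55 genes below the level of 10 reads.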
